A study of Mus musculus with 6 samples.

Results

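The genes described here build, coat and break down lipid droplets, and they were chosen by symbol from a gene-level RNA sequencing table of lung endothelial cells. All 10 listed genes had a row among the 23345 genes of the table, and all 10 passed the filter on low values. The cells came from C57BL/6JOlaHsd mice fed a normal diet (ND, mice 1, 3 and 4) or a high-fat diet (HFD, mice 2, 4 and 5) for 12 weeks, given as 3 months in the sample labels. Each of the 6 libraries was made from 500 cells of 1 mouse, and the number 4 names different animals in the 2 diets. The sources used here do not give the sex or age of the mice or what the diets contained. Lung cells were depleted with antibody to CD16/CD32, enriched with antibody to ICAM-2 and plated on collagen I until RNA was taken, so the values describe selected and plated cells. Both diets share the substrain.

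A lipid droplet is a store of triglyceride and sterol ester inside a single layer of phospholipid, covered by perilipin proteins. Triglyceride is finished in the endoplasmic reticulum by the DGAT enzymes and is released again in steps, by adipose triglyceride lipase, hormone-sensitive lipase and monoglyceride lipase. Endothelial cells take up fatty acids from the blood and pass them on to the tissue, and they can hold part of this flux in droplets.

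The promoter sequences below belong to the 3 genes whose level was higher in every HFD library than in every ND library. They are RefSeq sequences of GRCm38.p6, written 5′ to 3′ along the strand of the gene, from 250 bases before to 10 bases after an annotated start. Capitals mark matches to ACGTG, the core bound by hypoxia-inducible factors, or to AGGTCA, the hexamer that many nuclear receptors recognize, on either strand. The stretches are chr4:86670050-86670309 on the minus strand for Plin2, chr6:29272238-29272497 on the plus strand for Hilpda and chr17:56290502-56290761 on the minus strand for Plin3. Hilpda has another annotated start 138 bases downstream, and of its window only the 30 bases around a match are shown, at chr6:29272571-29272600 on the plus strand.
Plin2: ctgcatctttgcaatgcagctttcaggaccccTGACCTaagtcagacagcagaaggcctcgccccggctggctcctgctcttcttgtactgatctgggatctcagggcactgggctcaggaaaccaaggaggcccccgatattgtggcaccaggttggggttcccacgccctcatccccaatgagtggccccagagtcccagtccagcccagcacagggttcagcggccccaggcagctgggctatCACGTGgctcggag
Hilpda: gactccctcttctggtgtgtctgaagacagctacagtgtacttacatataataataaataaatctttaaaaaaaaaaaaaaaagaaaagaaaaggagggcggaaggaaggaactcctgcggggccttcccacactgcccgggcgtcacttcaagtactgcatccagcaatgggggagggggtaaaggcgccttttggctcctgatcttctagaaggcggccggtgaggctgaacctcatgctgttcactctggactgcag
Hilpda other start: gatggccagcggACGTGccccagggcgagc
Plin3: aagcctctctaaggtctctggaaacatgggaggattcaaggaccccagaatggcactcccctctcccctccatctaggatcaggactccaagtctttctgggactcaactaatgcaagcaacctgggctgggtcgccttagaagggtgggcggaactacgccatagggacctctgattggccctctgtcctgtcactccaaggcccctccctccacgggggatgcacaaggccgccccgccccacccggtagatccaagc

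In Plin2 the ACGTG matches on both strands overlap in a CACGTG that spans the start, and a TGACCT, the reverse complement of AGGTCA, begins at base -218. The match at the other Hilpda start begins at base -43. RefSeq windows of 300 bases were found for 8 of the 10 genes, of which Plin2, Hilpda, Mgll and Lipe held ACGTG and Plin2 and Abhd5 held AGGTCA. Among all 32851 such windows of the genome, 19.6% held ACGTG and 16.3% held AGGTCA on either strand. The direct repeat AGGTCANAGGTCA, a strict form of the element of peroxisome proliferator-activated receptors, was in 0 of the 11 windows of these genes and in 0.0396% of all windows. Such matches describe letters, not bound sites.

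The values are the authors' read counts after division by 1 size factor per library, called normalized counts below, and they are not scaled for gene length. Recovered depth was 13.8 to 17.2 M reads in ND and 18.8 to 27.9 M reads in HFD, so depth and diet cannot be told apart by design. Of the pan-endothelial markers 12 of 12 were present, and their summed level was 133547 to 168439 normalized counts in ND and 171768 to 201845 in HFD. That sum was higher in every HFD library than in every ND library, but the markers went both ways, with 8 of 12 higher and Cdh5, Kdr, Erg and Robo4 lower in HFD. Egfl7 had the smallest p of the list (log2 fold change 1.14 ± 0.25, limma adjusted p = 0.418, DESeq2 adjusted p = 0.0346). Without Egfl7, a gene singled out after its values were seen, the sum was 122854 to 149026 in ND and 145143 to 164480 in HFD, and the diets overlapped. ND 3 stood apart by 70918 normalized counts of the surfactant gene Sftpc, against 111 to 1195 elsewhere, and by 6388 of the myeloid lysozyme gene Lyz2, against 0 to 181. The log2 fold change without ND 3 is therefore given for each of the 10 genes. The separate mice give p-values that cover spread between animals, although amplification from 500 cells adds to it.

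To compare genes, levels were scaled to normalized counts per kb of annotated exon. On that scale Hilpda, hypoxia-inducible lipid droplet-associated protein, stood far above the others, at 9909 ± 3058 per kb for ND and 14789.6 ± 1249.7 for HFD (mean and SD, n = 3). Mgll followed with a mean of 531 per kb over the 6 libraries and Plin2 with 515, and the ranges of these 2 genes, 243 to 705 and 216 to 969, overlapped. Pnpla2 had a mean of 251 per kb, Abhd5 175, Plin3 129.9, G0s2 125, Dgat1 117 and Dgat2 97.5, and neighbours in this order overlapped in range. Lipe had the lowest mean of the 10 over the 6 libraries, at 42.3 per kb with a range of 12.0 to 66.1. In HFD alone the mean of G0s2 was lower, at 53.5 per kb against 56.6 for Lipe. The perilipins of fat cells were lower still, with 3.21 per kb for Plin1 and 0.262 for Plin4. Plin5, Cidea, Cideb and Cidec had no row in the table. Taken as read shares, the 10 genes made up 947 to 1023 reads per 1 M reads in ND and 1219 to 1515 in HFD, and Hilpda alone held 53.8% to 70.7% of their normalized counts.

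**Figure D1:**
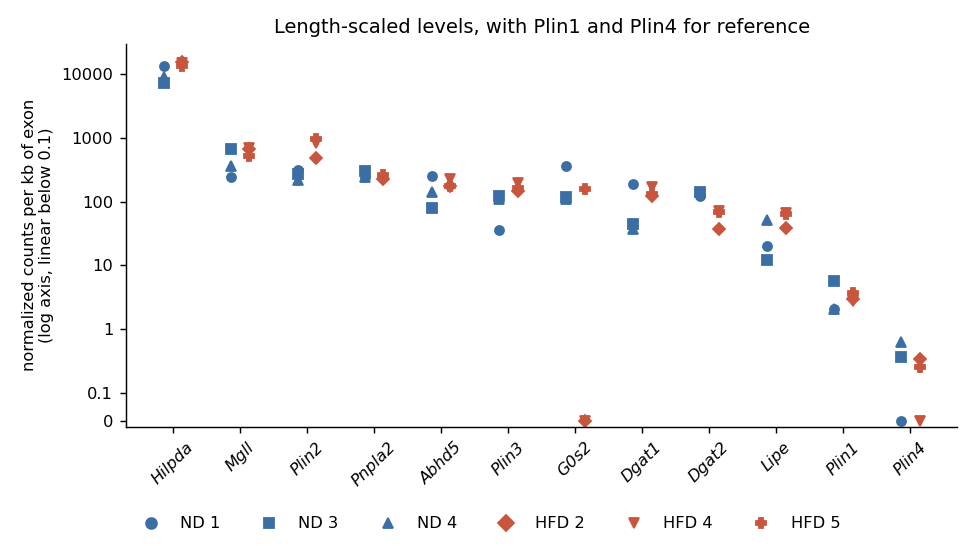
Normalized counts per kb of annotated exon in each of the 6 libraries, on a log axis that is linear below 0.1, for the 10 genes with Plin1 and Plin4 for reference; blue symbols are ND and red symbols HFD. Hilpda lies between 7418 and 15858 per kb, while Lipe reaches 66.1 and Plin1 and Plin4 have the lowest means. G0s2 is at 0 in HFD 2 and HFD 4.

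The comparison of HFD with ND asked whether droplet genes of lung endothelium differed after the high-fat diet. Transcripts of the coat genes Plin2 and Plin3 and of Hilpda were more abundant in each HFD library than in any ND library, and those of Dgat2 less abundant. Pnpla2, the lipase that opens triglyceride breakdown, had nearly equal means and overlapped, and the other 5 genes overlapped too. Thus 4 of 10 genes did not overlap, against 14.1% of the 15655 genes tested, 3 of them higher in HFD (background 8.12%) and 1 lower (background 5.93%). Of the 12 pan-endothelial markers 6 did not overlap, 5 higher and 1 lower, so such a share was not particular to these genes. The median SE was 0.46 for the 10 genes and 0.75 for all genes tested. In the limma test across all genes 0 of 10 passed an adjusted p of 0.05, as did 0 of 15655 genes, and the smallest adjusted p was 0.459 among the 10 genes and 0.276 overall. At an unadjusted p under 0.05 there were 4 of the 10, 2 higher and 2 lower, against 7.92% of all genes (5.56% higher and 2.36% lower). With every library scaled to an equal total the count of such genes went from 1240 (870 higher and 370 lower) to 1247 (709 higher and 538 lower), and that of the 10 genes was again 4. It was less stable elsewhere, at 1 of the 10 with edgeR and without HFD 2, and at 2 with DESeq2, without ND 3, without ND 4 and without HFD 4. The median log2 fold change was 0.65 for the 10 genes and 0.05 for all genes tested, with 7 genes higher and 3 lower, where 52.8% of all genes tested were higher. Because the genes were listed with earlier results of these data known, these counts describe the list and are no test of it.

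**Figure D2:**
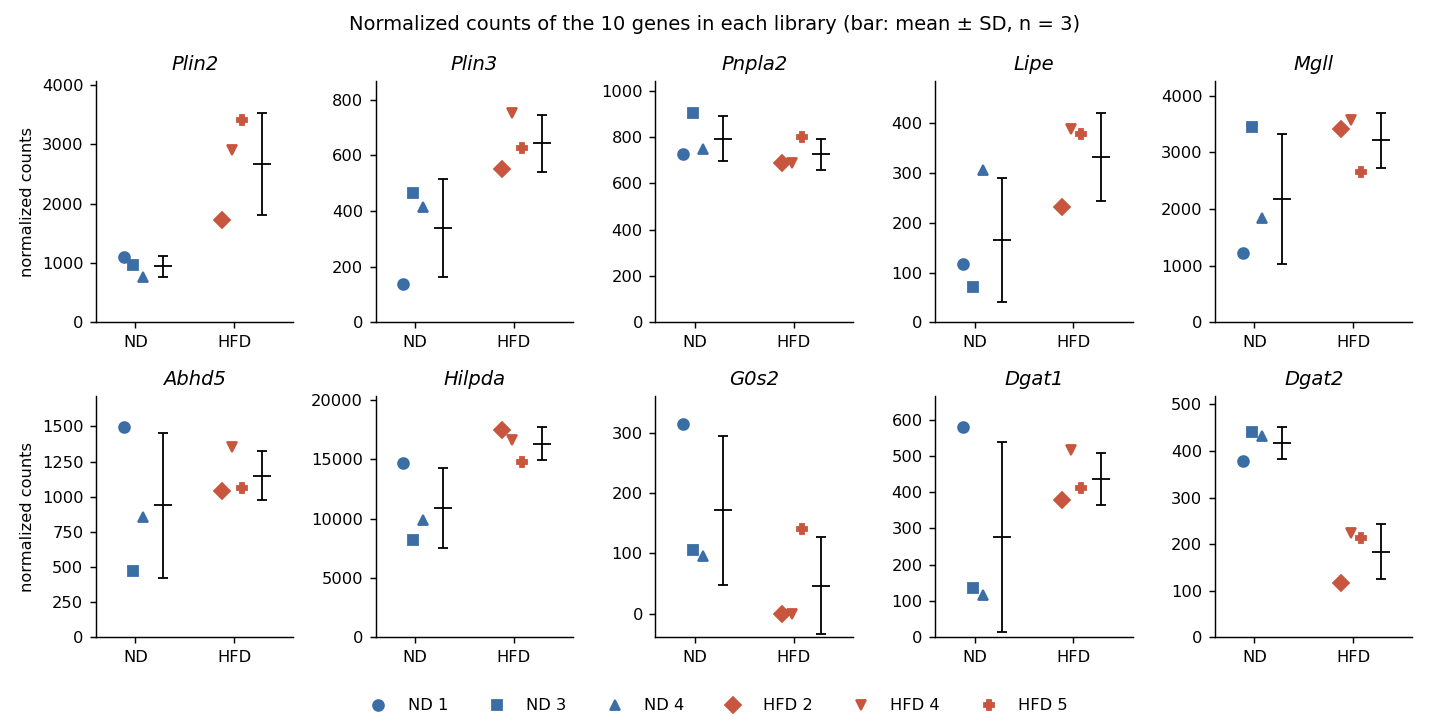
Normalized counts of each of the 10 genes in the 6 libraries, with ND in blue, HFD in red, 1 symbol per library and a bar for the mean ± SD (n = 3); each panel has its own linear axis. The diets separate for Plin2, Plin3, Hilpda and Dgat2, and G0s2 has 0 reads in HFD 2 and HFD 4.

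Plin2, the perilipin of droplets in most cell types, stood at 1103, 973 and 759 normalized counts for ND 1, ND 3 and ND 4 and at 1723, 2899.9 and 3403 in HFD 2, HFD 4 and HFD 5. The lowest HFD library lay well above the highest ND library. Its mean was 945 ± 174 in ND and 2675 ± 862 in HFD (SD, n = 3), a 2.83-fold ratio of means. The limma log2 fold change of 1.46 ± 0.35 (SE) had a 95% confidence interval of 0.63 to 2.29 and an adjusted p of 0.459. DESeq2 on the recovered whole reads called Plin2 as its single member, at a log2 fold change of 1.42 and an adjusted p of 0.00779, where it called 2.1% of the genes to which it gave an adjusted p. Without ND 3 the limma fold change of Plin2 was 1.49. Over all alternative settings the adjusted p of Plin2 ran from 0.00779 to 0.816. Plin2 lies on chromosome 4 from 86648386 to 86670060 (GRCm38, GENCODE M21), and no other gene overlaps its exons.

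Plin3, a perilipin that moves from the cytosol onto young droplets, was at 138 normalized counts for ND 1, 466 for ND 3 and 416 for ND 4. In HFD it was at 551, 754 and 627 in mice 2, 4 and 5. The diets did not overlap, although ND 3 and HFD 2 were close. Limma gave a log2 fold change of 1.09 ± 0.55 (95% confidence interval -0.21 to 2.39, limma adjusted p = 0.658). It was 0.54 without ND 1, which held the lowest level, and 1.41 without ND 3. Within a library, Plin2 exceeded Plin3 per kb by 8.61, 2.25 and 1.97 times in ND and by 3.37, 4.15 and 5.85 times in HFD. These ratios overlapped, and the wide ND range came from ND 1.

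Of the 3 lipases, Pnpla2 encodes adipose triglyceride lipase (ATGL), which removes the first fatty acid from triglyceride. Pnpla2 levels were 725, 906 and 747 normalized counts for the ND mice and 686, 688 and 801 for the HFD mice. Its spread was narrow and the diets overlapped. Its log2 fold change of -0.13 ± 0.32 (limma adjusted p = 0.950) had a 95% confidence interval of -0.87 to 0.62, which on the scale of the test spans folds of 0.548 to 1.53, and it was -0.03 without ND 3. Lipe, hormone-sensitive lipase, which acts next on diglyceride, was at 118, 70.6 and 306 normalized counts for ND 1, ND 3 and ND 4 and at 231, 389 and 379 for HFD 2, HFD 4 and HFD 5. ND 4 lay among the HFD libraries. For Lipe the log2 fold change was 1.24 ± 0.66 (95% confidence interval -0.31 to 2.78, limma adjusted p = 0.668), and it was 0.77 without ND 3 and 1.82 without ND 4. A gene on the opposite strand, 4732471J01Rik, covers 15.6% of the exonic bases of Lipe, and reads of the overlap cannot be told apart without a known strand setting.

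Mgll, monoglyceride lipase, frees glycerol in the last step and also degrades the endocannabinoid 2-arachidonoylglycerol. Its levels were 1232, 3449.9 and 1837 normalized counts for the ND mice and 3408, 3580.4 and 2658 for the HFD mice. ND 3 matched the HFD libraries, and the other ND libraries lay below all of them. For Mgll the log2 fold change was 0.68 ± 0.40 (95% confidence interval -0.26 to 1.63, limma adjusted p = 0.700), with 0.34 without ND 1 and 1.08 without ND 3. Per kb, Mgll exceeded Pnpla2 by 1.01 to 2.27 times in ND and by 1.97 to 3.10 times in HFD, and Lipe amounted to 0.0400 to 0.210 of Pnpla2 in ND and to 0.173 to 0.290 in HFD.

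ATGL itself is controlled by an activator, Abhd5 (CGI-58), and by the inhibitors Hilpda and G0s2. Abhd5 levels were 1493, 473 and 854 normalized counts for the ND mice and 1037, 1350.5 and 1058 for the HFD mice. The HFD libraries fell inside the ND range. Its log2 fold change was 0.43 ± 0.46 (95% confidence interval -0.66 to 1.52, limma adjusted p = 0.852), and it ran from 0.01 without ND 3 to 0.84 without ND 1. A730085K08Rik, on the opposite strand, overlaps 15.9% of the exonic bases of Abhd5.

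Hilpda is induced by low oxygen and by fatty acids and binds ATGL to slow triglyceride breakdown. Its normalized counts were 14694 for ND 1, 8182 for ND 3, 9914 for ND 4, 17492 for HFD 2, 16649.6 for HFD 4 and 14797 for HFD 5. The diets did not overlap, but ND 1 and HFD 5 were almost equal. Its mean was 10930.1 ± 3373 in ND and 16313 ± 1378 in HFD (SD, n = 3), a 1.49-fold ratio of means. A log2 fold change of 0.62 ± 0.24 (95% confidence interval 0.06 to 1.17, limma adjusted p = 0.581) was fitted, and it was 0.43 without ND 3 and 0.85 without ND 1. Relative to Pnpla2 per kb, Hilpda stood at 55.5, 24.7 and 36.3 in ND and at 69.9, 66.3 and 50.6 in HFD, again with ND 1 among the HFD values. Hilpda lies on chromosome 6 from 29272488 to 29275446.

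G0s2, the other small ATGL inhibitor and a transcript abundant in fat cells and neutrophils, was at 314, 105 and 95.03 normalized counts for ND 1, ND 3 and ND 4. It had 0 reads in HFD 2 and HFD 4, which allows up to 2.91 and 2.42 normalized counts by counting error alone, and 139.7 normalized counts in HFD 5. HFD 5 lay inside the ND range, so the diets overlapped. The fitted log2 fold change of -4.82 ± 1.96 (limma adjusted p = 0.604) depends on the pseudocount, being -5.49 at 0.5 and -3.31 at 5. It was -5.06 without ND 3, -3.64 without HFD 2 or without HFD 4, and -7.20 without HFD 5, where both HFD libraries left are at 0 reads and the value is no bound. On the recovered reads it was far smaller, -1.96 with edgeR (adjusted p = 0.875) and -2.00 with DESeq2, which gave no p-value for G0s2. The ratio of means, 3.68-fold higher in ND, rests on HFD 5 for all HFD reads. Of the neutrophil markers S100a8, S100a9, Ly6g and Ngp had no row, and the summed level of the other 6 was 54.5 to 74.8 normalized counts in ND and 67.0 to 129.7 in HFD.

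The final acylation of diglyceride is carried out by 2 unrelated enzymes, Dgat1 of the endoplasmic reticulum and Dgat2, which also reaches the droplet surface. Dgat2 levels were 379, 442 and 431 normalized counts for the ND mice and 116, 224 and 212 for the HFD mice. The ND values were tight, and every HFD library lay below them. Its mean was 417 ± 33.5 in ND and 184 ± 59.5 in HFD (SD, n = 3), so the ND mean was 2.27 times the HFD mean. Its log2 fold change of -1.23 ± 0.46 had a 95% confidence interval of -2.33 to -0.14 and a limma adjusted p of 0.579, and it was -0.93 without HFD 2 and -1.19 without ND 3. Dgat2 lies on chromosome 7 from 99153658 to 99182719.

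Dgat1 levels were 579, 136 and 115 normalized counts for the ND mice and 379.7, 516 and 411 for the HFD mice. ND 1 exceeded all HFD libraries and the other ND libraries lay below them. Its log2 fold change was 1.05 ± 0.68 (95% confidence interval -0.56 to 2.65, limma adjusted p = 0.732), with 1.78 without ND 1, 0.74 without ND 3 and 0.62 without ND 4. The ratio of Dgat2 to Dgat1 per kb, which no library scaling can alter, was 0.649, 3.22 and 3.71 in ND and 0.302, 0.430 and 0.512 in HFD. Every HFD ratio lay below every ND ratio, and it was the single pair among 7 computed whose diets did not overlap. Dgat2 was thus the more abundant DGAT transcript per kb in ND 3 and ND 4, and Dgat1 in the other 4 libraries. No test was made on these ratios, since the pairs were formed with the results known.

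**Figure D3:**
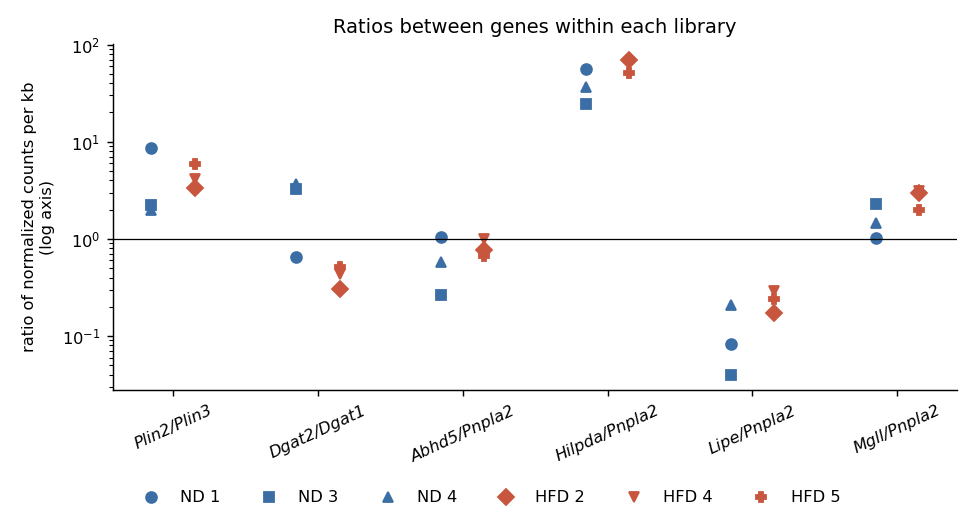
Ratio of normalized counts per kb between pairs of genes within each library on a log axis, with ND in blue, HFD in red and a line at equal levels. The Dgat2 to Dgat1 ratio is 0.302 to 0.512 in HFD and 0.649 to 3.71 in ND, and the other 5 pairs drawn overlap; the ratio of G0s2 to Pnpla2, which is 0 in HFD 2 and HFD 4 and also overlaps, is not drawn on the log axis.

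On the log2 scale the SD was wider in ND for 7 of the 10 genes, a share near the 58.0% of all genes tested, so it is no result about these genes. Dgat1 ranged 5.02-fold among ND mice and 1.36-fold among HFD mice, Lipe 4.34-fold and 1.68-fold, and Abhd5 3.16-fold and 1.30-fold. The exceptions were Plin2, G0s2 and Dgat2, where HFD was wider. ND 1 and ND 3 each held the highest or lowest value of all 6 libraries for 5 of the 10 genes. The share over all genes tested was not computed, so this count is no result about these genes. ND 1 had the most Abhd5, G0s2 and Dgat1 and the least Plin3 and Mgll, while ND 3 had the most Pnpla2 and Dgat2 and the least Lipe, Abhd5 and Hilpda. In each fit without 1 library the sign of all 10 fold changes was the same as with all 6, a count not made over all genes.

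**Figure D4:**
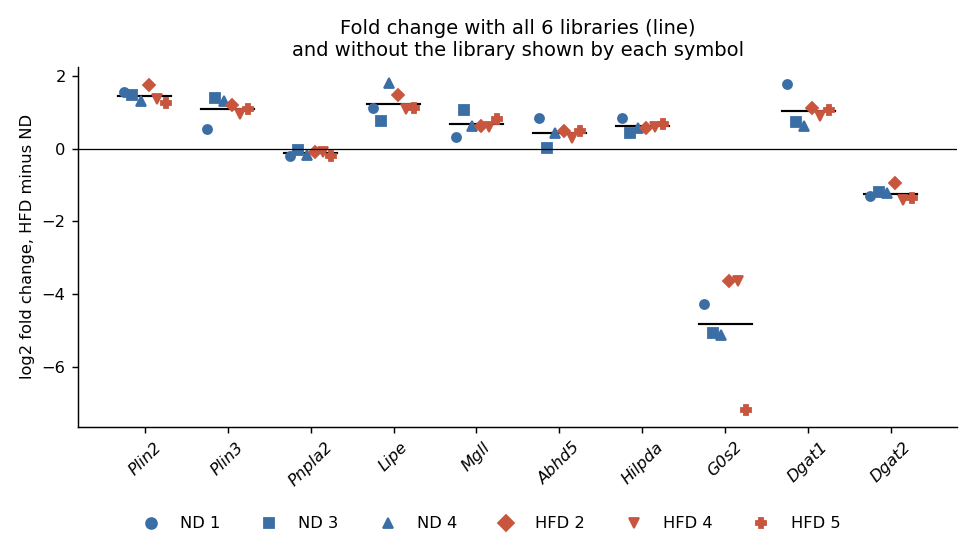
Limma log2 fold change of each gene, HFD minus ND, with all 6 libraries (line) and without the library that each symbol names. No symbol crosses 0; Plin2 keeps to 1.26 to 1.75, Dgat2 to -1.40 to -0.93, and G0s2 spans -7.20 to -3.64.

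Around these 10 genes lies a wider set of 64 genes of droplet formation, glycerolipid synthesis, other lipases and transcriptional control, of which 52 had a row and 46 were tested. Of the 46, 30 were higher and 16 lower in HFD, with a median log2 fold change of 0.26, against 0.05 for all genes tested. The limma test called 0 of 46, and DESeq2 called Daglb alone, where it called 2.1% of the genes to which it gave an adjusted p. The diets did not overlap for 6 of 46, or 13.0%, near the 14.1% of all genes tested. All 6 were higher in HFD, where the background for higher is 8.12%. Among genes of droplet coat and formation 10 of 11 were higher by limma, against 52.8% of all genes tested, and 8 of 11 by DESeq2 and by the ratio of means. The genes whose direction turned were Plin1 (ratio of means 0.958, DESeq2 -0.15) and Fitm2, a droplet-formation gene named after its values were seen (limma 0.65, ratio of means 0.881, DESeq2 -0.27). Rab18, a small GTPase of the droplet surface, averaged 4257 ± 381 normalized counts over the ND mice and 7622 ± 1632 over the HFD mice (SD, n = 3), a log2 fold change of 0.82 ± 0.22 without overlap (limma adjusted p = 0.492). Aup1, a droplet protein that also serves protein degradation at the endoplasmic reticulum, was at 1.10 ± 0.65 and Hsd17b11, a droplet dehydrogenase, at -0.79 ± 0.59, and both overlapped between the diets. Plin1 was at 0.09 ± 0.88, with 9.45 to 26.7 normalized counts, and Plin4 stayed below the filter.

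In glycerolipid synthesis 6 of 13 genes were higher and 7 lower. Gpat4, which starts the pathway by acylating glycerol 3-phosphate, averaged 269 ± 128 normalized counts over the ND mice and 772 ± 303 over the HFD mice (log2 fold change 1.55 ± 0.51). Agpat4, an acyltransferase of lysophosphatidic acid, had 1097 ± 385 and 2523 ± 888 (1.21 ± 0.41), and neither gene overlapped between the diets (limma adjusted p = 0.561 for both). Acsl5, a long-chain acyl-CoA synthetase, was at 1.11 ± 0.46 with overlap, since ND 3 lay among the HFD libraries. Among other lipases and glycerol handling 9 of 12 were higher. Daglb, which cuts diglyceride to 2-arachidonoylglycerol, the substrate of Mgll, was at 5.91, 4.28 and 3.56 normalized counts for the ND mice and at 60.2, 195 and 102 for the HFD mice. Its log2 fold change was 4.29 ± 0.83 (limma adjusted p = 0.342, DESeq2 adjusted p = 0.00604), and exons of the neighbour Rac1 cover 24.1% of its exonic bases. Abhd6, another monoglyceride lipase, had 164 ± 41.8 in ND and 424 ± 92.8 in HFD (1.36 ± 0.46), and Lpl, lipoprotein lipase, 1166 ± 603 and 2351 ± 388 (1.12 ± 0.40), both without overlap. Gpihbp1, which carries lipoprotein lipase to the capillary surface, had 18398 to 42867 normalized counts and a log2 fold change of 0.18 ± 0.29.

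**Figure D5:**
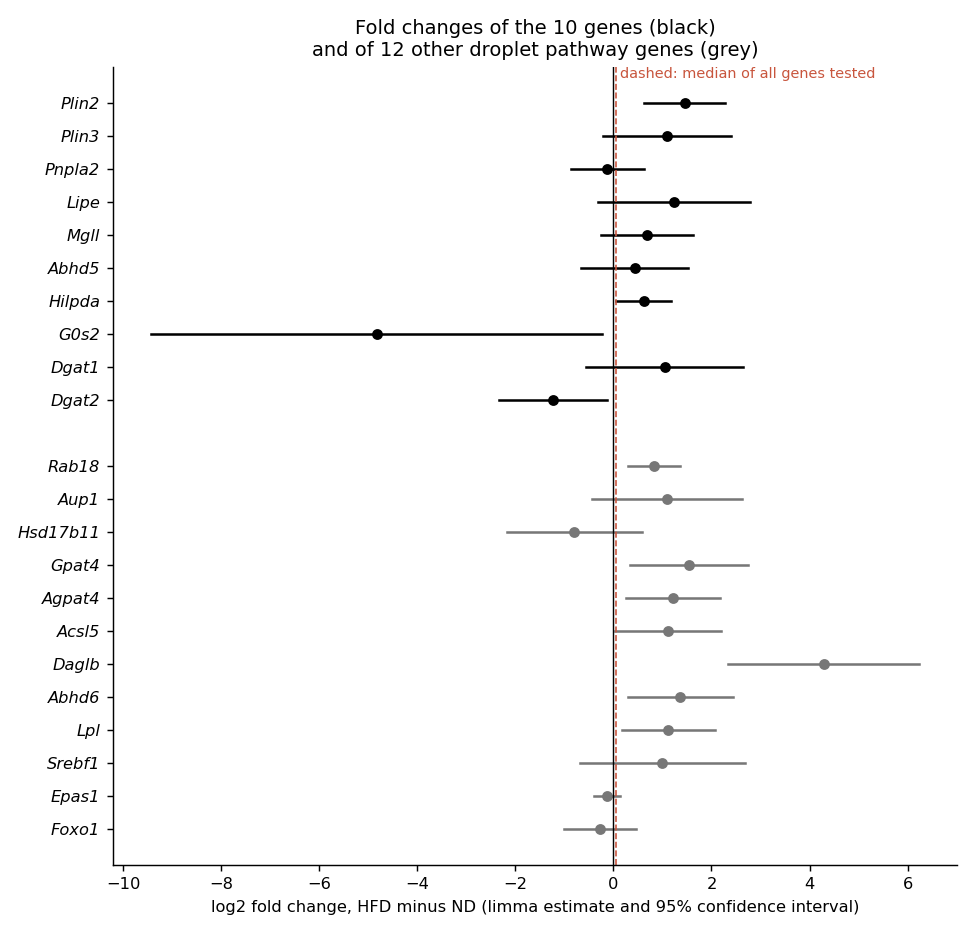
Limma log2 fold changes of HFD minus ND with 95% confidence intervals for the 10 genes (black) and for the 3 genes of smallest p in each of 4 pathway lists (grey); the dashed line is the median of all genes tested, 0.05. The intervals of Plin2, Hilpda, G0s2 and Dgat2 leave out 0, as do those of 7 of the 12 pathway genes, and none of the 22 passed after adjustment. The 12 were picked by their p, so their count follows from that choice. Over all 46 pathway genes tested, 7 had a limma unadjusted p under 0.05, all higher. Of all genes tested 7.92% did, 5.56% higher and 2.36% lower.

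Of the transcriptional regulators 5 of 10 tested were higher and 5 lower, and 0 were free of overlap. Hif1a, a hypoxia-inducible factor, was at a log2 fold change of 0.30 ± 0.38, and Epas1, its relative in endothelium, at -0.12 ± 0.11 with 46199 to 55351 normalized counts. Pparg, the receptor of fat cells, was at 8.32 to 56.7 normalized counts for the ND mice, at 290.3 for HFD 2 and at 2.42 and 5.76 for HFD 4 and HFD 5. Ppard had 5.94 to 128 normalized counts over the 6 libraries, Srebf1 was at 1.00 ± 0.71 and Foxo1 at -0.27 ± 0.31.

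Markers of other cells that hold or handle lipid were set beside these results. Of 7 adipocyte markers Adipoq, Cidec, Cfd and Retn had no row, and the other 3, Plin1, Lep and Slc2a4, summed to 10.7 to 28.9 normalized counts in ND and 17.7 to 21.6 in HFD. Fibroblast markers, which include those of lipid-storing lung fibroblasts, summed to 1335 to 7977 in ND and 1983 to 5188 in HFD, with 10 of 10 present. Alveolar type II markers, 8 of 9 present, summed to 78344 in ND 3 and to 223 to 1648 in the other 5 libraries. Alveolar macrophage markers, 3 of 9 present and without Marco, Siglecf and Itgax, summed to 11.8 to 615 in ND and 7.77 to 192 in HFD. The macrophage and monocyte list, 7 of 10 present, summed to 6610.1 in ND 3 and to 151 to 385 elsewhere. Mural markers, 10 of 10 present, summed to 1120.2 to 5901 in ND and 603 to 1244 in HFD, lymphatic markers, 7 of 7 present, to 14844 to 33567 and 4847 to 15959, and lymphocyte markers, 4 of 10 present, to 16.6 to 53.1 and 9.71 to 70.1. All these sums overlapped between the diets, but single markers, named here after their values were seen, did not. Those without overlap were lower in HFD in the macrophage and monocyte, lymphatic and mural lists, and higher in the neutrophil list. By limma 7 of 8 alveolar type II markers were lower in HFD (median log2 fold change -1.78), where 52.8% of all genes tested were higher. Lower too were 5 of 7 macrophage and monocyte markers (median -1.21), 2 of 2 alveolar macrophage and 2 of 2 lymphocyte markers tested. Of 10 fibroblast markers 6 were lower, and the 1 adipocyte marker tested was higher. Of 7 macrophage and monocyte markers tested, 1 was lower in HFD without overlap. Of 2 neutrophil markers tested, 1 was higher in HFD without overlap. By limma all 7 lymphatic markers were lower in HFD, with a median log2 fold change of -1.88. By DESeq2 1 of the 7 was higher, and by the ratio of means 1 of the 7. Pdpn was at 629 to 1475 normalized counts in ND and 48.6 to 160 in HFD (log2 fold change -3.32 ± 0.62, limma adjusted p = 0.338, DESeq2 adjusted p = 8.5e-06), and Lyve1 at 7202 to 8014 and 3779 to 5754, both without overlap. Of the mural markers 7 of 10 were lower by limma, Rgs5 (-1.08 ± 0.48) and Notch3 (-2.04 ± 1.10) without overlap. By DESeq2 0 of the 10 were higher, and by the ratio of means 1 of the 10. DESeq2 called Cnn1 (adjusted p = 0.00457), which overlapped. The part of these markers in the results was not tested. In such bulk samples fewer cells of a type and less RNA per cell cannot be told apart.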

How the data were processed

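Per the labels' protocols, cDNA was made from plated lung endothelial cells by oligo(dT) priming and template switching and was amplified by PCR. Per the submitters' processing notes, the GRCm38 build, HTSeq 0.6.1, SAMtools 0.1.19, TopHat2 2.0.10 with Bowtie 1.0.0, DESeq2, cutadapt and FastQC 0.11.7 were used, in roles not given there. The sources used here do not give the annotation or the strand setting. The authors deposited a normalized signal, that is, read counts per gene after division by 1 size factor for each library. The value of 1 read, 0.720 to 1.19, made 100% of values whole within 1e-06, so reads were recovered. No 2 libraries agreed within sampling noise (chi-square over its degrees of freedom, 84.3 to 205).

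HFD minus ND was tested on log2(value + 1) over 15655 genes (minimum mean over the libraries, 10), with limma 3.58.1 in R 4.3.3 (intensity trend, two-sided, Benjamini-Hochberg). The added 1 understates fold changes of genes low in all libraries. Where only some libraries had few or no reads, limma could give the larger change. It gave -4.82 for G0s2 and -3.26 for Gk, against -2.00 and -1.27 with DESeq2. For Gpat3 the larger change came from DESeq2, -5.40 against -3.49 with limma. Limits for 0 reads take 3 reads and, like all counting limits, cover counting error only. Alternatives included edgeR 4.0.16, limma-voom and DESeq2 1.42.0 on the recovered reads. The fit was checked on simulated counts. Exon lengths are unions of GENCODE M21 exons. The genes and lists were chosen with earlier results of these data known. Pathway genes named are the 3 of smallest p per list with a mean of at least 50, and 9 fixed ones, of which Plin5 and Cidec had no row. A check of the substrain is not reported here.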

Additional observations from a re-analysis of the deposited data

How the results depend on the processing

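Over 18 alternative settings the log2 fold changes of the 10 genes gave 180 values, of which 0 changed sign and 179 stayed on the same side of the adjusted p threshold. The exception was Plin2 with DESeq2. Every other setting called 0 of all genes, so staying on that side of the threshold says nothing about the 10 genes. The settings reuse the same libraries, and how many of all genes kept their sign was not counted. DESeq2 called 276 genes, 1 of the 10 genes (Plin2) and 1 pathway gene (Daglb), where limma, edgeR and limma-voom called 0 of each, with 1240, 1462 and 1311 genes at an unadjusted p under 0.05. Pseudocounts, filters, TMM scaling, equal column totals, quantile normalization and sample quality weights also left these counts at 0, as did each fit without 1 library (0 to 0 for all 3 counts). Genes free of overlap numbered 4 under equal totals and under TMM scaling, against 14.1% and 14.2% of all genes, and 4 to 6 without 1 library, against 21.0% to 27.3% of all genes; these were chosen after seeing the data. The 4 named above were among them each time. With equal totals the median of all genes went from 0.05 to -0.06 (log2), the fold change of Plin2 from 1.46 to 1.34 and that of Dgat2 from -1.23 to -1.35, and the higher share of the genes at an unadjusted p under 0.05 from 870 of 1240 to 709 of 1247. G0s2 had no adjusted p from DESeq2. The sex of the mice, plating and depth, which was greater in HFD throughout, could not be modelled. No paired analysis was possible because the diets share a single mouse number, 4, which names different animals.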

Other observations

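Some further genes of glycerol entry into the pathway were uneven between mice, and they were picked after their values were seen. Gpat3, an acyltransferase of the same first step as Gpat4, had 146 and 106 normalized counts in ND 1 and ND 3, 1.19 in ND 4 and 0.805 to 3.60 in HFD, so ND 4 lay among the HFD libraries. Its log2 fold change was -3.49 ± 1.72 with limma (adjusted p = 0.654) and -5.40 with DESeq2 (adjusted p = 0.0564). Other genes overlap 37.4% of the exonic bases of Gpat3. Gk, glycerol kinase, was at 313, 166 and 169 normalized counts for the ND mice, 264 in HFD 2 and 7.25 and 3.60 in HFD 4 and HFD 5. HFD 2 lay inside the ND range and the other HFD libraries far below it.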
